A study of Mus musculus with 8 samples.

Results

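The genes described here encode 10 proteins of the endothelial cell surface, its junctions and its matrix: *Pecam1*, *Ecscr*, *Egfl7*, *Cdh5*, *Kdr*, *Flt1*, *Tek*, *Tie1*, *Emcn* and *Eng*. They were taken by symbol from a table of 24385 features, in all 8 libraries. All 10 were found, and 9 of them were among the 10018 genes tested, those whose mean FPKM over the libraries reached 1. The exception was *Flt1*, with a mean of 0.925 FPKM. FPKM is a level per transcript length and per library total, so levels of different genes can be compared.

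Endothelial cells line blood vessels, and the endocardium is their counterpart inside the heart tube. They read vascular endothelial growth factor (VEGF) through the tyrosine kinase receptors Kdr and Flt1, and angiopoietins through Tek, with Tie1 as its partner receptor, while Eng is a co-receptor for ligands of the BMP and TGF-beta family. Cdh5 (VE-cadherin) and Pecam1 (CD31) hold neighbouring cells together, Emcn and Ecscr are surface glycoproteins, and Egfl7 is secreted into the matrix around the cells.

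Hearts of C57BL/6 mouse embryos were collected at embryonic day 8.5 (E8.5) and 9.5 (E9.5), in 2 genotypes and with 2 libraries for each of the 4 groups. Per the study's methods, the controls (WT) carried *Dgcr8* loxP/loxP and 1 copy of the Rosa26 mT/mG colour reporter, without Cre, and the conditional knockouts (cKO; Mesp1Cre/+; Dgcr8-/- in the labels) carried the same alleles plus 1 Mesp1-Cre allele. All groups therefore shared the floxed alleles and the reporter, and cKO embryos also differed from WT by the Cre allele. The Dgcr8 protein binds primary microRNA transcripts so that they can be cut into microRNA precursors. Mesp1-Cre acts in early mesoderm, whose progeny include heart muscle as well as endocardium and endothelium, so the deletion was not restricted to endothelial cells. Whole hearts were used, and the number of hearts per library is not given in the sources used here.

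*Egfl7* was the most abundant member and is the host gene of a microRNA that is known from endothelial cells, miR-126. The precursor of miR-126a lay at chr2:26591357-26591429 (GRCm38), inside the *Egfl7* locus at chr2:26581056-26592682. Its mature 3' strand is shown because a gene whose product is needed to make microRNAs was deleted here. It was read from RefSeq (GRCm38.p6, chr2:26591402-26591423, + strand), with the seed, bases 2 to 8, in capitals.
mmu-miR-126a-3p: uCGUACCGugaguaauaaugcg
The miR-126a and miR-126b genes were listed at 0 in all 8 libraries, so these libraries measured the host transcript and not the microRNA. The study's separate microRNA sequencing of E9.5 WT hearts listed mmu-miR-126a-3p among the abundant microRNAs.

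Promoter windows of 300 bases, 250 before and 50 after an annotated start, were found in RefSeq for 7 of the 10 members, with 9 windows in all because *Egfl7* had 3. The stretch before the first annotated start is printed for 3 of them, all on the + strand of GRCm38.p6. *Eng* (chr2:32646345-32646594) is shown because its level rose most with age. *Egfl7* (chr2:26580833-26581055) is shown as the most abundant member, and *Emcn* (chr3:137340828-137341061) as the member whose replicates differed most and whose sequence held the least G and C. Capitals mark GGAA or its reverse complement TTCC, the core that ETS factors bind, a family known for its part in endothelial genes.
*Eng*: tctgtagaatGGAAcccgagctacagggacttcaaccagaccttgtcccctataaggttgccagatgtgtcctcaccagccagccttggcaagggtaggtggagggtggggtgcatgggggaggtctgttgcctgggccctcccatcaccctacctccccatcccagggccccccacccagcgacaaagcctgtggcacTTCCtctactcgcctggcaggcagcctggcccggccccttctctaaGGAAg
*Egfl7*: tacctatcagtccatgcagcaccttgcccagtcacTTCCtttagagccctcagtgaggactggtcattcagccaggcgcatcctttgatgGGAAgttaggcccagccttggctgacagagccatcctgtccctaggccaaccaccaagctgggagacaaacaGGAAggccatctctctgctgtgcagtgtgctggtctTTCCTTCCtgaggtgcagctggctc
*Emcn*: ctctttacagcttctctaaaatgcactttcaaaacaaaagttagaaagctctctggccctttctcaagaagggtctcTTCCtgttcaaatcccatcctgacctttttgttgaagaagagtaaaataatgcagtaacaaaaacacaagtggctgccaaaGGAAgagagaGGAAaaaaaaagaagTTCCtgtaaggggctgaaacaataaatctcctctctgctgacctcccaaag
The printed stretches held 3, 5 and 4 cores in this order, and their GC content was 62.4%, 56.5% and 40.2%. The GGAA core occurred in 9 of the 9 member windows and in 96.0% of all 32851 windows of this length in the table. A longer ETS core, AGGAAG, which contains the shorter core, was in 6 of the 9 windows, belonging to 5 members (*Egfl7*, *Emcn*, *Eng*, *Flt1* and *Tie1*), and in 35.4% of all windows. The SP/KLF box GGGCGG was found in windows of *Egfl7*, *Flt1* and *Kdr*, and in 35.7% of all windows. The GATA site AGATAA was in the window of *Tek* (11.2% of all windows), and the TATA box TATAAA in that of *Flt1* (13.6%). Neither the forkhead site GTAAACA (3.65% of all windows) nor the SOX site ACAATG (12.6%) was in any of the 9. Both strands were searched, and a match describes letters, not binding.

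The labels were checked before the members were compared. The deleted gene, *Dgcr8*, stood at 7.10 and 8.60 FPKM in WT and 1.64 and 4.67 in cKO at E8.5, and 3.49 and 3.23 in WT against 1.15 and 1.77 in cKO at E9.5, and every cKO library lay under both WT libraries of its stage. The log2 change of *Dgcr8* was -1.19 at E8.5 (limma adjusted p 0.590) and -0.84 at E9.5 (adjusted p 0.317). Summed FPKM was between 884018 and 1944596 per library, relative depth spanned 1 to 1.45, and the absolute depth is unknown. Loci under 300 bp held 38.6% and 50.5% of the summed FPKM in the cKO libraries of E8.5 and 54.5% in replicate 1 of E9.5 cKO, against 15.7% to 22.4% in the other 5 libraries. Of 12 cardiomyocyte markers none was at 0 in any library, and their summed level was 25921 to 84895 FPKM, while 8 endocardial markers, led by *Hapln1*, *Gata5* and *Tmem100*, summed to 40.5 to 53.2 FPKM at E8.5 and 14.7 to 28.5 at E9.5, with none at 0.

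Both E8.5 cKO libraries stood apart from the WT libraries in markers of other cells, in different ways. In replicate 2, the 13 trophoblast markers, led by *Prl2c2*, *Prl3d1* and *Plac1*, summed to 1106 FPKM against 4.49 to 148 in the other 7 libraries, and its 10 decidual markers, led by *Prl8a2*, *Cryab* and *Prl3c1*, to 6641 against 524 to 2152. *Cryab*, at 506 to 1455 FPKM in every library, made up most of the decidual sums at E9.5. *Prl8a2* was at 5104 FPKM in replicate 2, 9.95 in replicate 1, 449 and 1141 in E8.5 WT, and 0.746 to 5.09 at E9.5. The E8.5 WT libraries thus held this marker as well. Of the tested genes, 38.5% differed at least 1.5-fold between the E8.5 cKO replicates, against 13.6% to 19.6% in the other 3 groups. Among the members, 5 of 10 differed that much within E8.5 cKO, namely *Ecscr* 2.91-fold, *Eng* 2.61-fold, *Tie1* 2.53-fold, *Egfl7* 2.44-fold and *Kdr* 1.74-fold, each with replicate 2 lower. Replicate 1 had 7038 FPKM of endoderm markers, against 781 to 2690 in the other 3 E8.5 libraries and 4412 to 6818 at E9.5, and 35529 FPKM of erythroid markers, against 7796 to 23860 in the other E8.5 libraries. The members' calls and several of their main values that rest on E8.5 cKO are therefore also given without replicate 2, here or in the closing section. Leaving it out leaves replicate 1 alone with the values just named. Counts of the gene lists with age in cKO, and the interaction of some members, are given with both libraries only. The limma tests at E9.5 share their estimate of the spread with this group.

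The 10 genes summed to 130 to 270 FPKM per library, and *Egfl7* alone made up 22.8% to 47.7% of that. In 7 of the 8 libraries *Egfl7* ranked first, the exception being E9.5 WT replicate 2, where *Eng* did. *Flt1* ranked last in all 8. Among the tested genes, the means of the other members ranged from the 50.6th percentile (*Cdh5*) to the 89.1st (*Egfl7*). Neighbours in the order of means, such as *Cdh5* (7.04 FPKM), *Tek* (7.24) and *Kdr* (8.39), or *Tie1* (16.1) and *Pecam1* (17.8), changed places between libraries.

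**Figure D1:**
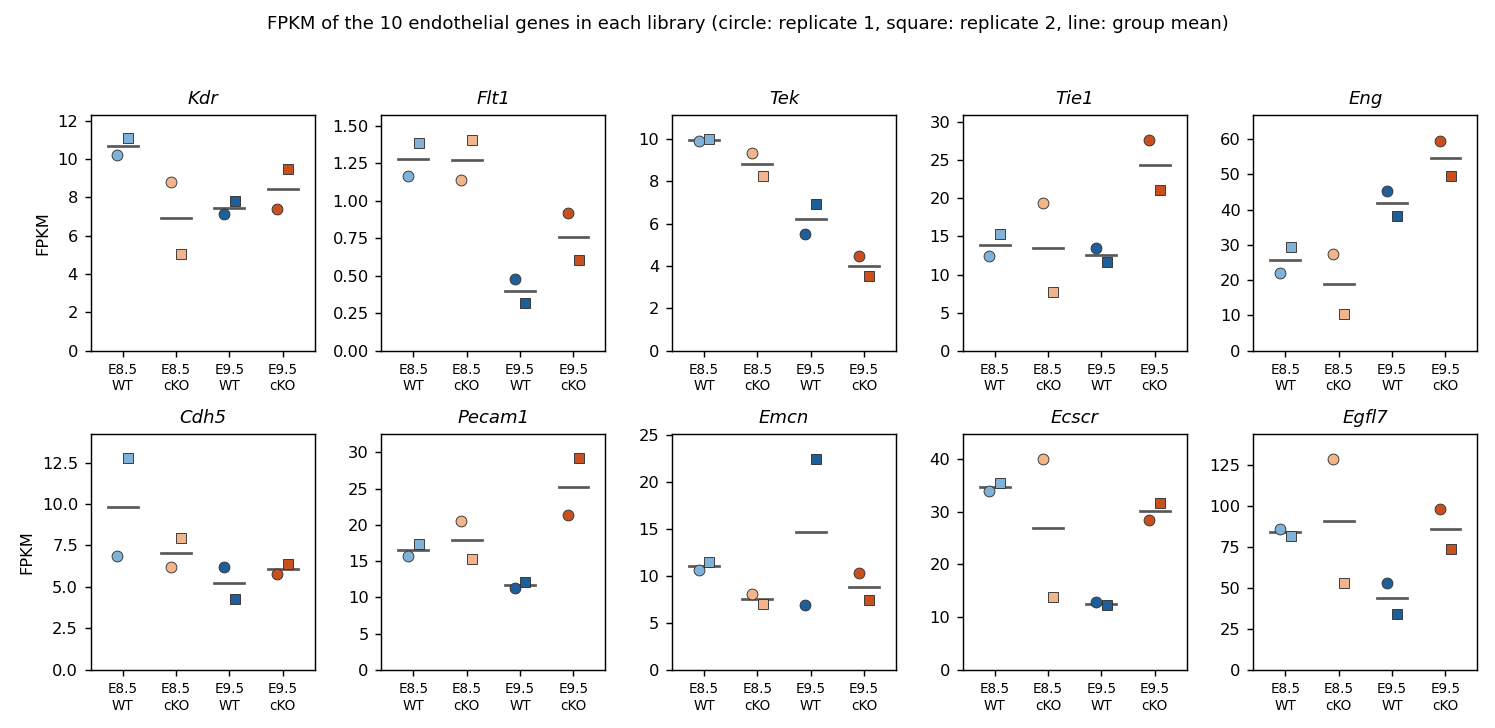
FPKM (linear axis from 0) of each of the 10 genes in the 8 libraries, by stage and genotype; circles are replicate 1, squares replicate 2, and lines the mean of 2. At E9.5 both cKO libraries lie above both WT libraries for *Flt1*, *Tie1*, *Eng*, *Pecam1*, *Ecscr* and *Egfl7*, and below them for *Tek*.

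Of the VEGF receptors, *Kdr* (chromosome 5, 75933270 to 75978428), the main signalling receptor, was at 10.2 and 11.1 FPKM in WT and 8.84 and 5.07 in cKO at E8.5, and 7.14 and 7.81 in WT against 7.42 and 9.48 in cKO at E9.5. Its cKO libraries were below the WT libraries at E8.5 and overlapped with them at E9.5. *Flt1* (chromosome 5, 147562196 to 147725988), which binds VEGF tightly but signals weakly and also exists as a soluble trap, was at 1.17 and 1.39, 1.14 and 1.40, 0.477 and 0.319, and 0.916 and 0.603 FPKM in the same order of groups. The E8.5 genotypes overlapped, and at E9.5 both cKO libraries were higher, although all 4 E9.5 values were under 1 FPKM. The ratio of *Flt1* to *Kdr* lay between 0.0408 and 0.277 in every library.

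Among the angiopoietin receptors, *Tek* (chromosome 4, 94739289 to 94874976), also called Tie2, was at 9.90 and 9.997 FPKM in WT and 9.36 and 8.24 in cKO at E8.5, and 5.50 and 6.94 in WT against 4.45 and 3.51 in cKO at E9.5. Its cKO libraries lay under the WT libraries of the same stage, and its E9.5 libraries under the E8.5 libraries of the same genotype, without overlap. *Tie1* (chromosome 4, 118471191 to 118489849), the partner receptor with no well-established ligand of its own, was at 12.5 and 15.3, 19.4 and 7.68, 13.5 and 11.6, and 27.7 and 21.1 FPKM. Its highest values were the 2 of E9.5 cKO, and the other 3 groups overlapped with one another.

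These receptors therefore stood in different proportion within a library, which no scaling between libraries can alter. The FPKM ratio of *Tek* to *Tie1* was 0.792 and 0.653 in WT and 0.482 and 1.07 in cKO at E8.5, and 0.406 and 0.598 in WT against 0.161 and 0.167 in cKO at E9.5. At E9.5 it was 3.01-fold lower in cKO than in WT, and the groups did not overlap. The transcripts of *Tek* and *Tie1* had a GC content of 47.1% and 58.2%. At E9.5 the cKO minus WT change of all genes ran with GC content (Spearman's rho 0.405 over the 9122 tested genes with a transcript), and after the correction for transcript GC the change at that stage was -0.25 for *Tek*, in place of -0.53, and 0.72 for *Tie1*, in place of 0.89.

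*Eng* (chromosome 2, 32646595 to 32682669), the endoglin co-receptor, was at 21.9 and 29.4 FPKM in WT and 27.4 and 10.5 in cKO at E8.5, and 45.4 and 38.2 in WT against 59.5 and 49.6 in cKO at E9.5. It was higher at E9.5 than at E8.5 in both genotypes, and higher in cKO than in WT at E9.5, in each case without overlap. The table also listed *Fpgs*, whose locus meets the end of the *Eng* locus, at up to 19.9 FPKM. Reads from such a stretch cannot be told apart without strand, which is not given in the sources used here.

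Of the junction genes, *Cdh5* (chromosome 8, 104101625 to 104144502), the cadherin of endothelial adherens junctions, was at 6.88 and 12.7 FPKM in WT and 6.21 and 7.92 in cKO at E8.5, and 6.20 and 4.24 in WT against 5.78 and 6.37 in cKO at E9.5. WT and cKO overlapped at both stages. *Pecam1* (chromosome 11, 106654213 to 106715281), an adhesion molecule of cell borders that platelets and white blood cells carry as well, was at 15.7 and 17.3, 20.6 and 15.3, 11.3 and 12.0, and 21.3 and 29.2 FPKM. At E9.5 its cKO libraries were both above the WT libraries, while the E8.5 genotypes overlapped.

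The ratio of *Kdr* to *Pecam1* was nearly constant in WT, at 0.653 and 0.640 at E8.5 and 0.634 and 0.649 at E9.5. In cKO it was 0.429 and 0.332 at E8.5 and 0.348 and 0.324 at E9.5, so all 4 cKO libraries, with or without E8.5 cKO replicate 2, were below all 4 WT libraries. The ratio of *Eng* to *Pecam1* was higher at E9.5 in both genotypes, going from 1.40 and 1.69 to 4.03 and 3.17 in WT, and from 1.33 and 0.686 to 2.79 and 1.70 in cKO. It was also lower in cKO than in WT without overlap, 1.61-fold at E8.5 and 1.64-fold at E9.5, although E8.5 cKO replicate 1 (1.33) was close to the lower WT value (1.40), as were *Tek* to *Pecam1* and *Emcn* to *Pecam1* at both stages. *Cdh5* to *Pecam1* overlapped between genotypes at E8.5, *Ecscr* to *Pecam1* at E9.5, and *Tie1* and *Egfl7* to *Pecam1* at both stages. These ratios were chosen with the values known and were not tested.

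**Figure D2:**
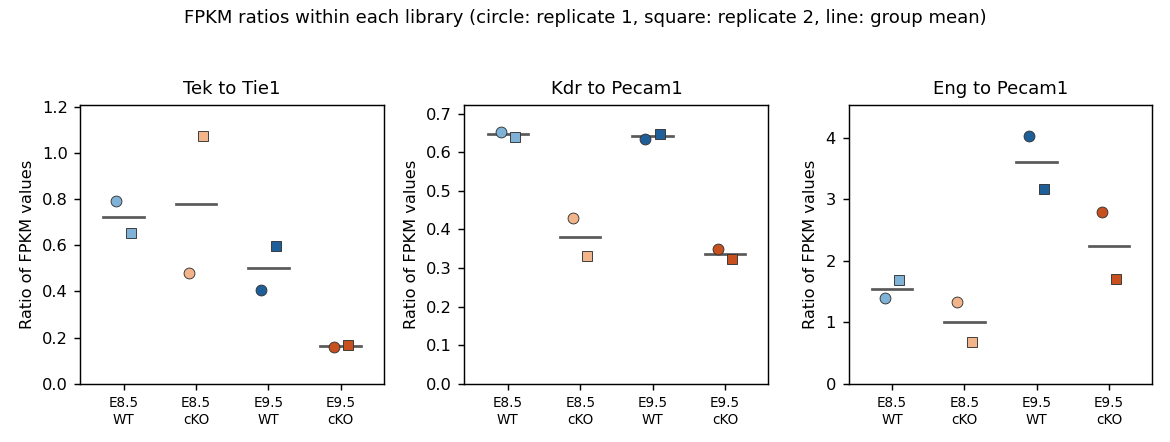
Ratio of 2 FPKM values within each library (linear axes from 0), with circles for replicate 1, squares for replicate 2 and lines for the mean of 2. *Tek* to *Tie1* is lowest in E9.5 cKO (0.161 and 0.167), *Kdr* to *Pecam1* separates the genotypes at both stages, and *Eng* to *Pecam1* is higher at E9.5 than at E8.5 in each genotype.

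Of the other surface and matrix genes, *Emcn* (chromosome 3, 137341078 to 137431069), a sialomucin of venous, capillary and endocardial endothelium, was at 10.6 and 11.4 FPKM in WT and 8.05 and 6.99 in cKO at E8.5, and 6.86 and 22.4 in WT against 10.3 and 7.37 in cKO at E9.5. The E9.5 WT replicates thus differed 3.27-fold and enclosed the cKO values. *Emcn* had the lowest transcript GC content of the members, 41.5%, and the difference between the E9.5 WT replicates ran with GC content over all genes (rho -0.627). The part of GC content in the gap of *Emcn* was not tested.

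*Ecscr* (chromosome 18, 35713089 to 35721491), a regulator of endothelial chemotaxis and of signalling at the cell surface, was at 34.0 and 35.5 FPKM in WT and 40.1 and 13.8 in cKO at E8.5, and 12.8 and 12.3 in WT against 28.4 and 31.7 in cKO at E9.5. Its WT replicates were close to each other at both stages, and at E9.5 cKO was higher without overlap. *Egfl7*, whose product acts in the forming vessel tube, was at 86.0 and 82.0, 129 and 52.8, 53.1 and 34.2, and 98.3 and 74.1 FPKM. The E9.5 groups did not overlap, with cKO higher, and the E8.5 cKO libraries lay on both sides of the WT values.

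At E9.5, which asks how hearts without *Dgcr8* in the Mesp1 lineage differ from controls at the later stage, 6 of the 10 members were higher in both cKO libraries than in both WT libraries, 1 was lower and 3 overlapped. None of the 9 tested members was called by limma at an adjusted p under 0.05 and 1.5-fold. All over the table the same fit called 0.17% of the tested genes higher and 0.00998% lower (17 and 1 genes, or 54 and 2 under median-ratio scaling). Of the 9 tested members, 5 were higher without overlap, against 21% of all tested genes, and 1 lower, against 31.1%. At an unadjusted p under 0.05, 2 members were higher (*Pecam1* and *Ecscr*), against 5.27% of genes, and 0 lower, against 10.5%. In whole hearts, a change in the number of endothelial cells, in RNA per cell or in expression by other cells cannot be told apart. The study also sequenced single cells and reported raised angiogenesis genes, *Pecam1* among them, in cKO cardiomyocytes. Those data are not part of the values given here.

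The largest difference was that of *Ecscr*, at 12.6 ± 0.374 FPKM in WT and 30.0 ± 2.33 in cKO (SD, n = 2), a log2 difference of 1.19 (SE 0.44, adjusted p 0.245). Next came *Pecam1*, from 11.7 ± 0.549 to 25.3 ± 5.61 FPKM (log2 change 1.04, SE 0.27, adjusted p 0.142), and *Egfl7*, from 43.7 ± 13.3 to 86.2 ± 17.1 FPKM (0.98, SE 0.43, adjusted p 0.324). *Tie1* differed by 0.89 (SE 0.40, adjusted p 0.330) and *Eng* by 0.38 (SE 0.42, adjusted p 0.740). *Pecam1*, *Ecscr* and *Egfl7* were among the vascular genes that the study itself had picked from these hearts, so their direction in these libraries is not independent evidence. Besides its single-cell data, the study reported higher *Pecam1* and *Ecscr* in E9.5 cKO hearts by q-PCR on biological repeats. Fold changes on the log2(FPKM + 1) scale understate those of genes near or below 1 FPKM.

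*Tek* was the tested member with the lowest change, -0.53 (SE 0.24, adjusted p 0.330), at 6.22 ± 1.02 FPKM in WT and 3.98 ± 0.666 in cKO. *Emcn* changed by -0.48 (SE 0.47), *Kdr* by 0.15 (SE 0.29, 95% interval -0.52 to 0.82) and *Cdh5* by 0.20 (SE 0.33, interval -0.55 to 0.95). These intervals include both no difference and a difference of 1.5-fold. The median change of the 9 tested members was 0.38, beside -0.07 over all tested genes. Under 14 alternative settings the changes of *Ecscr*, *Pecam1*, *Egfl7*, *Tie1*, *Eng* and *Tek* kept their direction, none was called, and the change of *Emcn* ran from -1.27 without E9.5 WT replicate 1 to 0.31 without E9.5 WT replicate 2.

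**Figure D3:**
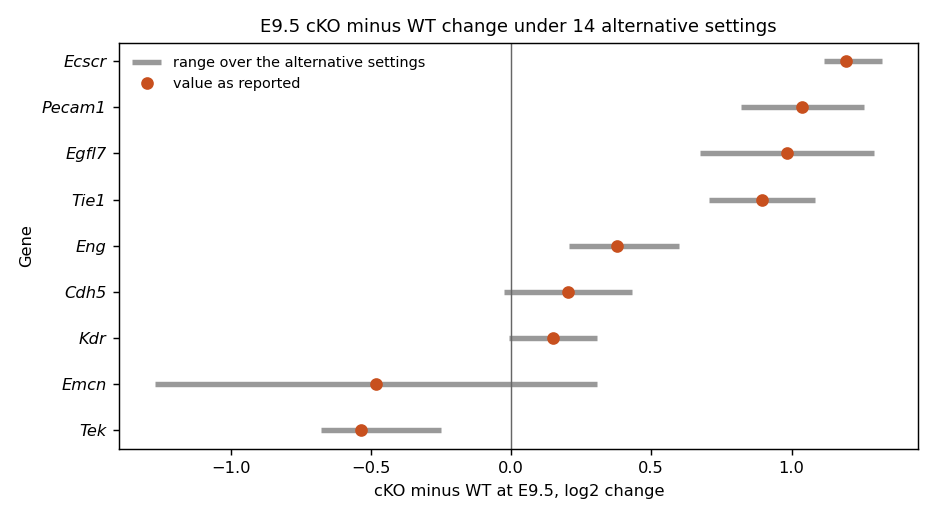
Change from WT to cKO at E9.5 on the log2 axis for the 9 tested genes, with the reported value as a point and the range over 14 alternative settings as a bar. Bars of *Kdr*, *Cdh5* and *Emcn* reach both sides of 0, that of *Emcn* from -1.27 to 0.31.

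Markers of other cell types differed in the E9.5 contrast as well. Their sums are RNA levels and not cell counts, and the study counted fewer Troponin T positive cells on E9.5 cKO heart sections. The cardiomyocyte markers (*Myl7*, *Actc1* and *Myl4* highest) summed to 84878 and 84895 FPKM in cKO against 61446 to 62947 in WT, with 7 of the 12 higher without overlap and 1, *Myh6*, lower. The 9 smooth muscle and pericyte markers, led by *Acta2*, *Tagln* and *Cnn1*, summed to 8498 to 9062 against 3506 to 4864. The contractile genes carried that sum, and of the 9 markers 5 were higher and 2 lower without overlap, with *Cspg4* higher (4.66 and 3.81 against 1.501 and 2.13 FPKM) and *Pdgfrb* lower (0.540 and 0.588 against 2.52 and 2.47). The 10 myeloid markers, cells that can also express *Pecam1*, summed to 16.6 to 17.0 against 12.6 to 14.6, with 1 to 4 of them at 0 in each library. Most of this sum was *Lyz2* (10.7 and 14.3 against 8.03 and 9.28 FPKM), and 3 of the 10, *Lyz2*, *Cd68* and *Csf1r*, were higher without overlap and 1, *Fcgr3*, lower. *Csf1r* lay near the floor, at 0.207 and 0.283 against 0.193 and 0.162 FPKM. The 8 epicardial markers, led by *Upk3b*, *Upk1b* and *Tcf21*, were lower, at 13.9 to 15.7 against 31.3 to 46.5. Sums of 13 trophoblast, 10 decidual and 10 endoderm markers overlapped between the E9.5 genotypes, as did those of 11 primitive erythroid markers (29112 to 39600 in cKO and 14434 to 29574 in WT), 8 megakaryocyte markers (9.78 to 69.6 and 21.5 to 42.3) and the endocardial markers (14.7 to 21.9 in cKO and 18.3 to 28.5 in WT). The decidual sums were mostly *Cryab* at this stage, with *Prl8a2* at 1.23 and 5.09 FPKM in WT and 2.08 and 0.746 in cKO. Of the 8 endocardial markers, 2 were higher without overlap (*Nfatc1* and *Klf2*) and 1 lower (*Npr3*). Of the 11 erythroid markers, whose sum is mostly globin, 6 were higher in both cKO libraries and 0 lower, among them *Alas2* at 20.8 and 14.3 against 3.94 and 9.18 FPKM. Beside these counts of markers without overlap stand 21% of all tested genes higher and 31.1% lower. The part of these cell types in the members' values was not tested.

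The same question at E8.5 concerns an earlier heart tube. No member was called by limma there, 0 of 9 had an unadjusted p under 0.05 (0.26% of all genes did in the higher and 7.55% in the lower direction), and 0.00998% of tested genes were called higher and 0% lower. *Kdr*, *Tek* and *Emcn* were lower in both cKO libraries than in both WT libraries, so 3 of 9 tested members were lower without overlap, against 40.1% of all tested genes, and 0 were higher, against 2.54%. *Kdr* had the lowest change, -0.59 (SE 0.29, adjusted p 0.590), from 10.7 ± 0.613 to 6.95 ± 2.66 FPKM, and -0.25 without E8.5 cKO replicate 2. The 9 changes ran from -0.59 to 0.10, the latter for *Pecam1*, with a median of -0.38 beside -0.28 over all genes, and adjusted p was 0.590 or above. Without E8.5 cKO replicate 2, the median of the members relative to that of all genes was 0.34 in place of -0.09, and the changes of *Ecscr*, *Eng*, *Tie1* and *Egfl7* were 0.20, 0.11, 0.46 and 0.61 in place of -0.54, -0.55, -0.16 and -0.02. The endocardial marker sum was lower in E8.5 cKO as well, at 40.5 to 46.4 against 51.2 to 53.2 FPKM, as was the sum of the megakaryocyte and platelet markers, at 5.02 to 6.54 against 8.30 to 9.10, and their part was not tested.

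**Figure D4:**
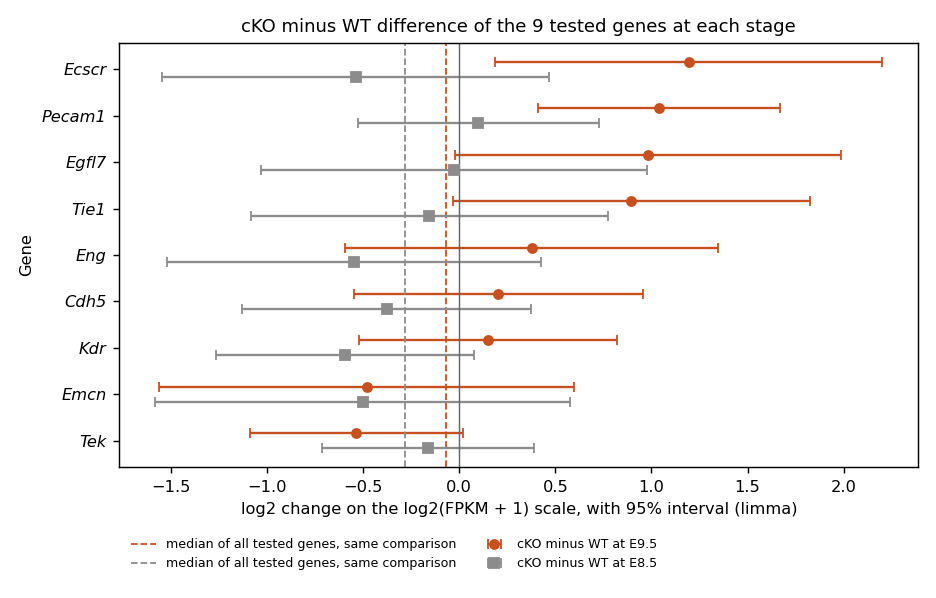
Change from WT to cKO of the 9 tested genes at E9.5 (circles) and E8.5 (squares) on the log2(FPKM + 1) scale, with 95% limma intervals and dashed lines at the median of all tested genes (-0.07 and -0.28). At E9.5 only the intervals of *Ecscr* and *Pecam1* lie above 0, before adjustment for the number of genes; at E8.5 all 9 include 0.

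Whether the cKO effect differed between stages was tested as an interaction in the same fit. It was above the median gene, 0.18, for 7 of the 9 tested members. *Emcn* was at 0.02 and -0.069 without E8.5 cKO replicate 2, and *Tek* at -0.37 (SE 0.34). *Ecscr* had the largest value, 1.73 (SE 0.62, adjusted p 0.689), and *Pecam1* had 0.94 (SE 0.38, adjusted p 0.693). Without E8.5 cKO replicate 2 these values were 0.99 and 0.73, and without E8.5 cKO replicate 1 that of *Ecscr* was 2.47 and was called (adjusted p 0.0458). No member was called, against 0.0299% of genes higher and 0.00998% lower. Before adjustment, at a p under 0.05, 2 of 9 members were higher and 0 lower, against 5.69% and 1.49% of genes. The median of the members relative to that of all genes was 0.75, and 0.26 without E8.5 cKO replicate 2.

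With age in WT hearts, which follows normal development from E8.5 to the later stage, *Ecscr* fell from 34.8 ± 1.06 to 12.6 ± 0.374 FPKM (SD, n = 2; log2 change -1.40, SE 0.44, limma adjusted p 0.0334). It was the 1 member of 9 called lower, against 46.7% of all tested genes, and none was called higher, against 1.4%. Before adjustment, at a p under 0.05, 3 members were lower, against 58% of genes, and 0 higher, against 2.02%. Over all genes 140 were called higher and 4683 lower, but 321 and 69 under median-ratio scaling. The whole table shifted in this comparison, with a median change of -0.84, so *Ecscr* fell by 0.56 relative to the median gene. Sums of other cells' markers differed between the stages in WT as well, being lower at E9.5 for some lists, from 39.9 to 120 down to 12.6 to 14.6 FPKM for the myeloid, 62.7 to 148 down to 6.96 to 11.9 for the trophoblast, 1133 to 2152 down to 524 to 716 for the decidual and 51.2 to 53.2 down to 18.3 to 28.5 for the endocardial list. Those of cardiomyocytes (25921 to 42983 up to 61446 to 62947), endoderm (781 to 2690 up to 5097 to 6798), smooth muscle, epicardium and megakaryocytes were higher without overlap. *Cryab* held much of the decidual sums (646 and 970 FPKM at E8.5, 506 and 704 at E9.5), whereas *Prl8a2* went from 449 and 1141 to 1.23 and 5.09. Erythroid sums overlapped, but 7 of the 11 markers were lower without overlap and 1 higher, against 80.1% and 5.43% of genes. The part of these cells in the members' changes was not tested. The call of *Ecscr* was lost under 8 of 14 alternatives, including median-ratio scaling (-0.44, adjusted p 0.563) and the removal of any 1 of the 4 WT libraries (adjusted p 0.102 to 0.122).

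Without overlap, 6 of the 9 tested members were lower at E9.5 in WT (*Kdr*, *Tek*, *Cdh5*, *Pecam1*, *Ecscr* and *Egfl7*), against 80.1% of genes, and *Flt1* was lower as well. *Eng* was the 1 member that was higher, against 5.43% of genes, with a change of 0.69 (SE 0.42, adjusted p 0.184) or 1.53 relative to the median gene. Relative to that median, 7 of the 9 members were above it and *Ecscr* and *Egfl7* below. Under median-ratio scaling, which moves the median to -0.04, the changes of *Kdr*, *Tek*, *Tie1*, *Cdh5*, *Pecam1* and *Egfl7* were above 0, so the direction of these members in WT depends on the scaling, whereas that of *Ecscr* and *Eng* did not turn under any of the 14 alternatives. *Flt1*, fitted without the filter on low values, changed by -0.70 (SE 0.17, adjusted p 0.0414).

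With age in cKO hearts, *Eng* rose from 18.9 ± 11.9 to 54.6 ± 6.94 FPKM (SD, n = 2; log2 change 1.62, SE 0.42, limma adjusted p 0.0291), and *Tek* fell from 8.80 ± 0.791 to 3.98 ± 0.666 FPKM (-0.98, SE 0.24, adjusted p 0.0250). Marker sums of cardiomyocytes (39319 to 57134 up to 84878 to 84895 FPKM), smooth muscle (2810 to 4915 up to 8498 to 9062) and megakaryocytes (5.02 to 6.54 up to 9.78 to 69.6) were also higher at E9.5 in cKO, and the endocardial (40.5 to 46.4 down to 14.7 to 21.9) and decidual sums lower, without overlap, and their part was not tested. *Eng* and *Tek* were the 2 members called, 1 of 9 higher against 2.05% of all tested genes and 1 of 9 lower against 28.5%. Before adjustment the same 2 members passed a p of 0.05, against 3.29% of genes higher and 43.7% lower. Over all genes 205 were called higher and 2857 lower, but 400 and 77 under median-ratio scaling. Relative to the median gene, which changed by -0.64, the change was 2.25 for *Eng* and -0.34 for *Tek*. *Tek* fell less under median-ratio scaling (-0.34, adjusted p 0.348) and after correction for transcript GC (-0.17, adjusted p 0.636), and was then not called. Both calls were lost when either E9.5 cKO library was left out. Without E8.5 cKO replicate 2 both were still made, with 0.96 for *Eng* (adjusted p 0.0496) and -1.06 for *Tek* (adjusted p 0.0363). Without E8.5 cKO replicate 1, so against the library with high trophoblast and decidual sums alone, *Tie1* (1.54) and *Ecscr* (1.07) were called higher as well, but without replicate 2 their changes were 0.30 and -0.41.

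Without overlap, 3 of the 9 tested members were higher at E9.5 in cKO (*Eng*, *Tie1* and *Pecam1*), against 7.05% of genes, and 1 was lower (*Tek*), against 62.7%. *Flt1* was lower too, from 1.27 ± 0.187 to 0.759 ± 0.221 FPKM. *Pecam1* was thus lower with age in WT (-0.47, SE 0.27) and higher in cKO (0.47, SE 0.27, but 0.27 without E8.5 cKO replicate 2 and 0.25 without E9.5 cKO replicate 2), with adjusted p of 0.169 and 0.198, and its WT change turned to 0.46 under median-ratio scaling and to 0.30 after the GC correction. The same settings moved its cKO change to 1.20 (adjusted p 0.0507) and 1.02 (adjusted p 0.0498), and quantile normalization to 1.20 (adjusted p 0.0478), so that *Pecam1* was called higher in cKO under the last 2. The median of the 9 changes in cKO was 0.28, or 0.92 relative to all genes, and 0.65 relative to all genes without E8.5 cKO replicate 2. The comparisons share their groups pairwise (the E9.5 WT libraries enter both the stage comparison in WT and the cKO comparison at E9.5), so their values stand side by side and were not correlated.

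**Figure D5:**
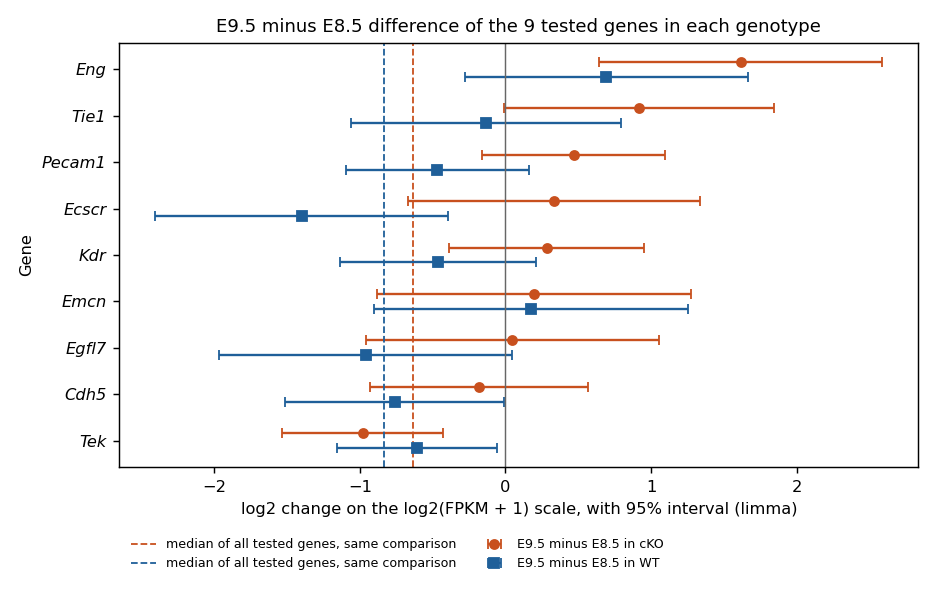
Change from E8.5 to E9.5 of the 9 tested genes in cKO (circles) and WT (squares) on the log2(FPKM + 1) scale, with 95% limma intervals and dashed lines at the median of all tested genes (-0.64 and -0.84). *Eng* in cKO lies above 0 and *Tek* in both genotypes and *Ecscr* and *Cdh5* in WT below it, before adjustment for the number of genes.

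Ligands and partners of the VEGF receptors were measured beside them. Of 11 listed genes 7 were tested, and limma called none by genotype at either stage, where 1 was higher at E9.5 and 1 lower at E8.5 at an unadjusted p under 0.05, against 5.27% and 7.55% of all genes. At E9.5 *Vegfa*, the main ligand of Kdr, was at 0.660 and 0.595 FPKM in WT and 2.48 and 1.06 in cKO (log2 change 0.72, SE 0.30, limma adjusted p 0.306). *Vegfb*, a ligand of Flt1, changed by 0.64, and *Plcg1*, an effector of Kdr, by 0.15. The co-receptor *Nrp2* (-0.57), the lymphatic VEGF receptor *Flt4* (-0.32) and the Flt1 ligand *Pgf* (-0.25) had the lowest changes of the list. Counts of genes called lower with age, in this list and the following ones, stand beside 46.7% of all genes in WT and 28.5% in cKO, which fell to 69 and 77 genes under median-ratio scaling. With age, 0 of 7 were called in WT, where 6 were lower at an unadjusted p under 0.05, against 58% of all genes, and 1 of 7 was called lower in cKO, and the list's median change at E9.5 was -0.06 beside -0.07 over all genes.

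Of the 9 genes of the angiopoietin and TIE pathway, 5 were tested. *Angpt1*, the activating ligand of Tek, fell in WT from 9.48 and 8.24 FPKM to 0.815 and 3.07 with age, and was called lower (log2 change -1.86, limma adjusted p 0.0173). *Angpt2*, its context-dependent antagonist, was called lower as well (-1.33, adjusted p 0.0427). In WT 2 of the 5 were thus called lower with age and in cKO 1 of 5. At E9.5 limma called none between genotypes, and 0 had an unadjusted p under 0.05, where *Tnip2* changed by 0.44, *Angpt2* by 0.38, *Akt1* by 0.04, *Angpt4* by -0.18 and *Angpt1* by -0.30. *Angpt4* was listed at 0 in E9.5 cKO replicate 1.

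Of 18 listed genes of the endoglin and ALK1 pathway, 15 were tested. At E9.5 the BMP target genes *Id2* (518 and 332 FPKM in WT, 65.0 and 183 in cKO), *Id3* (670 and 332 against 120 and 175) and *Id1* (117 and 128 against 57.1 and 53.7) had the lowest changes, -1.91, -1.70 and -1.13, with adjusted p of 0.129, 0.136 and 0.216. Without overlap, 5 of the 15 were lower, these 3 included, against 31.1% of all genes, and 5 were higher, against 21%. The changes of the receptor genes *Acvrl1* (ALK1, 0.54) and *Tgfbr2* (0.42) and of the inhibitor *Smad7* (0.43) were the highest. Of the 15, limma called 0 by genotype, with 4 lower at E9.5 and 1 lower at E8.5 at an unadjusted p under 0.05, against 10.5% and 7.55% of all genes. With age, 8 were called lower with age in WT, among them *Acvrl1* (-1.21, adjusted p 0.0134), and 6 in cKO. None of the 15 was called higher with age in cKO, against 2.05% of all genes.

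Of 16 tested genes for other endothelial junction and surface proteins, 9 were higher in both E9.5 cKO libraries than in both WT libraries, against 21% of all tested genes, and 0 lower, against 31.1%, with a median change of 0.45. None was called, and 4 were higher at an unadjusted p under 0.05, against 5.27% of all genes. *Itga5*, a fibronectin receptor subunit, was at 11.8 and 13.2 FPKM in WT and 43.4 and 35.5 in cKO (log2 change 1.57, SE 0.28, limma adjusted p 0.0873). *Mcam*, which smooth muscle also expresses, was at 9.97 and 13.2 against 27.8 and 29.2 FPKM (1.24, adjusted p 0.116), and *Esam*, a tight junction protein of endothelium, changed by 0.94. The lowest changes were those of *Itgb1* (-0.43), *Jam3* (-0.24) and *Cd34* (-0.15). With age, 6 of 16 were called lower in WT, and in cKO 2 were called higher, against 2.05% of all genes, and 2 lower.

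Of 14 tested catenins and adaptors, which tie Cdh5 to the cytoskeleton, limma called none by genotype at either stage, with 1 higher at E9.5 at an unadjusted p under 0.05 (5.27% of all genes), and 8 were called lower with age in each genotype, against 46.7% of all genes in WT and 28.5% in cKO. At E9.5 *Jup* (plakoglobin) changed by 0.79 and *Ccm2* by 0.34, and *Rap1a*, *Ctnna1* and *Vcl* by -0.63, -0.63 and -0.60. Of 20 tested genes for other endothelial proteins, 8 were higher without overlap in E9.5 cKO and 4 lower, beside the same 21% and 31.1% of all genes, with a median change of 0.17, and limma called none, while 3 were higher and 1 was lower before adjustment at a p under 0.05, against 5.27% and 10.5% of all genes. *Vwf*, the von Willebrand factor of endothelium and platelets, was at 0.626 and 0.552 FPKM in WT and 3.70 and 2.12 in cKO (log2 change 1.27, adjusted p 0.112). The vascular transcription factor *Sox7* changed by 0.83 and the matrix protein *Mmrn2* by 0.89, while *Gimap6*, *Ets1* and *Rhoj* changed by -0.64, -0.61 and -0.56. With age, 2 of the 20 were called higher and 5 lower in WT, and 2 and 2 in cKO, where 1.4% and 2.05% of all genes were called higher.

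The members did not share 1 profile over the 8 libraries. Pearson correlations of log2(FPKM + 1) between the 9 tested members had a median of 0.22 over 36 pairs and ran from -0.70 (*Tek* and *Eng*) to 0.90 (*Ecscr* and *Egfl7*). These correlations are descriptive, since the libraries share depth and GC differences and 4 groups of 2. Against the mean scaled profile of the other 9 members, *Ecscr* (0.94), *Egfl7* (0.76) and *Kdr* (0.69) were closest, and *Eng* (0.01), *Tek* (0.02) and *Emcn* (-0.20) farthest. The 10 other genes most like the mean profile of all members were *Clcn6*, *Cdip1*, *Atp7b*, *Abcb6*, *Abhd4*, *Ano10*, *Tcirg1*, *Slc9a8*, *Nadsyn1* and *Lmf2*, with correlations of 0.95 to 0.98.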

How the data were processed

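Total RNA of whole embryonic hearts was amplified (SMARTer Ultra Low kit in the labels, Smart-seq2 in the study's methods) and sequenced, and the authors deposited 1 table of FPKM values (fragments per kilobase of transcript, scaled to the library total) for all 8 libraries. BWA and the build mm9 are named in the submitters' processing notes, while the program that made the FPKM is not given in the sources used here. The gene positions in the table match GRCm38, since 91.7% of 9515 tested genes that matched RefSeq by symbol started within 1000 bp of the RefSeq start on that build. Libraries were assigned to genotype and stage from the labels, and 0 columns of per-sample values were left unused.

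Of 24930 entries, those that shared a symbol were reduced to the entry with the highest mean, which left 24385 features, 27 of them with symbols that had been turned into dates. A pseudocount of 1 was added, values were put on the log2 scale, and genes whose mean FPKM reached 1 were fitted with limma 3.58.1 in R 4.3.3 (4 groups in 1 model, variance trend). P-values are two-sided and were adjusted over all 10018 genes by the Benjamini-Hochberg method. Calls required a difference of at least 1.5-fold together with an adjusted p under 0.05. All intervals are limma's 95% intervals. The fit was tested on simulated data with known changes. With 2 libraries against 2 an exact permutation test cannot give a p under 0.333, so none is used. FPKM carry no read counts, so no counting intervals are given, and relative depth was estimated from the most common ratio of low values between libraries. Per the study's methods the 2 libraries of a group are independent biological samples. P-values measure the spread between such libraries, pooled for each gene over all 4 groups and moderated by the variance trend. The E9.5 tests therefore also carry the gap between the E8.5 cKO replicates. For *Ecscr* that gap was 2.91-fold, against 1.04-fold in E9.5 WT and 1.12-fold in E9.5 cKO. Fitted with only the 2 E9.5 groups, *Ecscr* had a limma adjusted p of 0.142 in place of 0.245.

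The members, gene lists and tests were chosen with earlier results of these data known. All 10 members are named. Of each pathway list the 3 highest and 3 lowest changes at E9.5 are named (all in a list with at most 6 tested genes, and 1 gene is not reported here), of each marker list at most 3 genes by mean level, and the 10 genes most like the members' mean profile. Alternatives were a pseudocount of 0.1, no filter, median-ratio scaling, quantile normalization, rescaling to loci of at least 300 bp, 1 common variance, a fit of only the 2 groups compared, a replicate block, and leaving out each library. A correction for transcript GC (9122 of the tested genes, 91.1%) and a crossed pairing were added after the data were seen.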

Additional observations from a re-analysis of the deposited data

Results flagged for a closer look

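*Pecam1* had a lower level at E9.5 than at E8.5 in WT and a higher one in cKO. It was 15.7 and 17.3 FPKM at E8.5 and 11.3 and 12.0 at E9.5 in WT, but 20.6 and 15.3 at E8.5 and 21.3 and 29.2 at E9.5 in cKO, and the stages did not overlap within either genotype. The difference between the 2 changes was 0.94 on the log2 scale (SE 0.38, limma p 0.0409, adjusted p 0.693), so it did not pass the threshold over all genes. Relative to the median gene, *Pecam1* was higher at E9.5 in both genotypes, and its change in WT was 0.46 under median-ratio scaling, 0.51 after quantile normalization and 0.30 after the correction for transcript GC, in place of -0.47. Its change in cKO was 1.20, 1.20 and 1.02 under these settings, in place of 0.47, and was called under the last 2 (adjusted p 0.0478 and 0.0498). Without E8.5 cKO replicate 2 the difference was 0.73 and the change in cKO 0.27, and without E9.5 cKO replicate 2 they were 0.72 and 0.25.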

How the results depend on the processing

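Values are log2 changes unless called counts. The cause of each move below was not tested, except that omitting libraries leaves fewer samples and dropping the filter adds low genes. Between genotypes no member was called under any of the 14 alternatives at E9.5 or at E8.5.

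In cKO minus WT at E8.5, median-ratio scaling, quantile normalization and GC correction turned *Tek* to 0.16, 0.15 and 0.16, *Tie1* to 0.17, 0.13 and 0.10, and *Egfl7* to 0.33, 0.29 and 0.25. With age in WT, the same settings gave 0.43, 0.52 and 0.32 for *Kdr*, 0.28, 0.38 and 0.24 for *Tek*, 0.79, 0.83 and 0.53 for *Tie1* and 0.46, 0.51 and 0.30 for *Pecam1*, while the first 2 gave 0.11 and 0.21 for *Cdh5* and median-ratio scaling 0.022 for *Egfl7*. Rescaling to loci of at least 300 bp gave -0.020 for *Emcn*. With age in cKO, *Cdh5* turned to 0.48, 0.56 and 0.24 under those settings and *Egfl7* to -0.067 after rescaling to loci. The interaction of *Emcn* turned to -0.21 and -0.17 under median-ratio scaling and quantile normalization.

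Of the 9 members tested, those called with age in WT, 1 as reported, were 0 with no filter (where *Flt1*, which the filter removes, was called lower), under median-ratio scaling, quantile normalization and GC correction and without any 1 library (0 to 0), 2 with the replicate block, 4 after rescaling to loci and 3 when only the 2 groups were fitted. The 2 calls in cKO (*Eng* and *Tek*) stayed 2 in number, but with *Tie1* (1.64) in place of *Tek* under median-ratio scaling and *Pecam1* (1.20 and 1.02) in place of *Tek* after quantile normalization and GC correction. They became 1 with no filter, 0 with only the 2 groups, and 0 (without E9.5 cKO replicate 1 or 2) to 4 (without E8.5 cKO replicate 1) when a library was left out. The members' median relative to all genes was -0.10 in WT and 0.47 in cKO with no filter.

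Leaving out 1 library, the relative median ran from -0.31 to 0.34 between genotypes at E8.5, from 0.65 to 1.23 with age in cKO, and from 0.26 to 0.92 for the interaction, with 0 to 1 members called in the last. At E9.5 *Kdr* ran from -0.0082 to 0.31, *Cdh5* from -0.026 to 0.43 and *Emcn* from -1.27 to 0.31. At E8.5 *Tie1* ran from -0.77 to 0.46, *Eng* from -1.20 to 0.11, *Cdh5* from -0.78 to 0.025, *Pecam1* from -0.10 to 0.30, *Ecscr* from -1.28 to 0.20 and *Egfl7* from -0.66 to 0.61. With age in WT *Tie1* ran from -0.27 to 0.0048 and *Emcn* from -0.61 to 0.96, and in cKO *Kdr* from -0.066 to 0.63, *Emcn* from -0.023 to 0.41, *Ecscr* from -0.41 to 1.07 and *Egfl7* from -0.59 to 0.68. The interaction of *Emcn* ran from -0.77 to 0.81. Where a group was left with 1 library, it was assumed to vary like the others.

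The replicate numbers do not pair libraries: deviations of same-numbered libraries correlated at 0.0168 and -0.00358 between genotypes at E9.5 and E8.5, and at -0.116 and -0.0465 between stages in WT and cKO. Over all genes the replicate block gave 11 higher and 1 lower in place of 17 and 1 at E9.5. In WT it gave 145 and 4523 in place of 140 and 4683, and *Egfl7* was called as well (-0.96). Crossed pairing between stages, chosen after seeing the data, gave 0 and 0 at E9.5, 123 and 4180 with age in WT, and 172 and 2323 in place of 205 and 2857 in cKO. Over all genes, leaving out 1 library gave 0 to 4 higher and 0 to 6 lower at E9.5, 0 to 20 and 0 to 46 at E8.5, 4 to 85 and 28 to 2204 with age in WT, and 1 to 417 and 0 to 2740 in cKO. With no filter these counts were 4 and 1, 0 and 0, 91 and 3273, and 90 and 1098, and after quantile normalization 29 and 2, 3 and 0, 88 and 27, and 258 and 49. Depth is unknown.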

Other observations

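Taken one by one, the members were most like different genes. Over the 8 libraries and on the log2(FPKM + 1) scale, *Kdr* ran closest to *Ankrd34a*, *Ap2a2* and *Phka2* (Pearson correlations 0.94 to 0.96), *Flt1* to *Ankrd39*, *Sipa1l2* and *Lrp10* (0.99 each), *Tek* to *2610301B20Rik*, *Mterf3* and *Tmem126b* (0.99 each), and *Tie1* to *Tmem38a*, *Ndufv3* and *Rabac1* (0.97 each). *Eng* was most like *Man2b2*, *Adam15* and *Emilin1* (0.96 to 0.98), *Cdh5* like *Bcl7b*, *Acss2* and *Abcb10* (0.94 to 0.99), and *Pecam1* like *Ctsa*, *Lta4h* and *Wbp2* (0.93 to 0.95). *Ecscr* was most like *Tcirg1*, *Abhd4* and *Xpnpep1* (0.98 to 0.99), *Egfl7* like *Pnpla6*, *Pef1* and *Vps51* (0.98 each), and *Emcn* like *Akap12*, *Peg3* and *3425401B19Rik* (0.87 to 0.89). None of them was another member. The libraries share depth, GC differences and groups, so these values describe likeness over 4 groups of 2 and carry no p.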
